A study of Mus musculus with 6 samples.

Results

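The MHC class I genes and their peptide loading machinery were examined in the mouse macrophage-like line RAW264.7 given vehicle or an agent labelled 25-HC for 24 h. The members are the 37 rows of the deposited gene table, of 56636 in all, whose names mark a class I gene of the H2-K, H2-D, H2-Q, H2-T or H2-M regions, or that are B2m, Tap1, Tap2, Tapbp, Tapbpl, Erap1 or Nlrc5. H2 is the name of the mouse MHC. The members were selected by name, with earlier results of these data known. They are 3 classical genes (H2-K and H2-D), 27 non-classical genes (H2-Q, H2-T and H2-M) and 7 genes of loading and regulation.

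All libraries came from wild-type RAW264.7 cells, kept in the same medium and serum, with 3 libraries per group. Both groups were exposed for 24 h, and neither the dose nor the full name of 25-HC is given in the labels. RAW264.7 is a single virus-transformed line, so the libraries have no animals behind them. Separate cultures are not named in the labels, so each p-value measures the spread among these libraries alone, and that spread may be technical. The series title places the experiment in work on cholesterol homeostasis and a microRNA secreted by cancer cells.

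A class I molecule is a heavy chain, encoded by an H2 gene, held together with the light chain beta-2-microglobulin. The TAP transporter moves peptides from the cytosol into the endoplasmic reticulum, where tapasin and its relatives edit the peptides that the heavy chain binds. Macrophages carry class I on their surface, and interferons are known to raise most genes of the system through factors that include IRF1 and NLRC5.

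The values are TPM, a level per gene that is scaled for transcript length and to the same total in each library. Depth and counts cannot be read from them. RAW264.7 was derived from the BALB/c strain, while the build named in the submitters' notes, GRCm39, is of C57BL/6J. Class I genes differ between these strains in sequence and in number, so a row holds the reads that were assigned to the C57BL/6J gene of that name. The part of this in any value was not tested.

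The vehicle libraries differed from each other more than the 25-HC libraries did. Vehicle 1, 2 and 3 had 11238, 9492 and 11994 genes at 1 TPM or more, and the 25-HC libraries had 11971 to 12005. Against the treated mean on log2(TPM + 1), the median tested gene lay at -0.33, -1.25 and 0.07 in vehicle 1, 2 and 3. In vehicle 2 that median was -0.05 for the sixth of the genes with the shortest transcripts and -1.63 for the sixth with the longest. Results are therefore also given after median-ratio rescaling, which divides each library by 1 factor (0.409 for vehicle 2, 0.973 to 1.32 for the others), and against vehicle 3 alone. Of 10 macrophage markers, 8 averaged 1 TPM or more, among them Cd68, Lyz2 and Csf1r. Mertk was listed at 0 in every library. The highest summed level of any library was 1.74 TPM for dendritic cell markers, 4.23 TPM for B cell markers, 0.47 TPM for fibroblast markers and 0.23 TPM for epithelial markers. For T and NK cell markers it was 19.0 TPM, almost all of it Klrb1c, with Cd3e at most 0.04 TPM. In such bulk samples, fewer cells that express a gene and less RNA per cell cannot be told apart.

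Of the 37 members, 22 averaged at least 1 TPM over the 6 libraries and were tested, 1 lay between 0 and 1 TPM (H2-M10.1, at most 0.08 TPM) and 14 were listed at 0 in all libraries. All 3 classical and all 7 loading genes were tested, as were 7 of 8 H2-Q genes and 4 of 5 H2-T genes. Of the 14 H2-M genes only H2-M3 was. H2-Q3, H2-T3 and 12 H2-M genes made up the rows at 0, which includes the pseudogenes H2-M6-ps and H2-M10.5-ps1. Erap1 averaged under 1 TPM in vehicle and passed the filter only through its values in 25-HC.

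None of the 22 tested members passed limma with Benjamini-Hochberg adjustment over all 12092 genes, where adjusted p ran from 0.389 to 0.698 for the members. That test called 0.00827% of all genes higher and 0% lower. At an unadjusted p under 0.05 it had 5 members higher (H2-T24, Erap1, Nlrc5, B2m and H2-T23) and none lower, beside 8.24% and 2.94% of all genes. Erap1 is among these and in each upward count below, though the filter favoured a higher value of it in 25-HC. In 18 of the 22 tested members every 25-HC library lay above every vehicle library, as in 22.6% of all genes, and in none did every 25-HC library lie below, as in 8.1%. After median-ratio rescaling 10 members separated upward and none downward, beside 18.7% and 17.9% of all genes. By class, 2 of 3 classical, 10 of 12 non-classical and 6 of 7 loading genes separated upward as deposited, and 2, 4 and 4 did after rescaling. The members' median log2 difference was 0.91 as deposited and 0.42 after rescaling, and that of all tested genes was 0.52 and 0.01. Against vehicle 3 alone it was 0.25, with every 25-HC library above vehicle 3 in 20 of 22 members and below it in 2 (Tap1 and H2-Q1). Of all genes, 28.5% lay above vehicle 3 in this way and 45.7% below. With 3 libraries against 3, an exact permutation test of a single gene cannot give a two-sided p below 0.1.

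**Figure D1:**
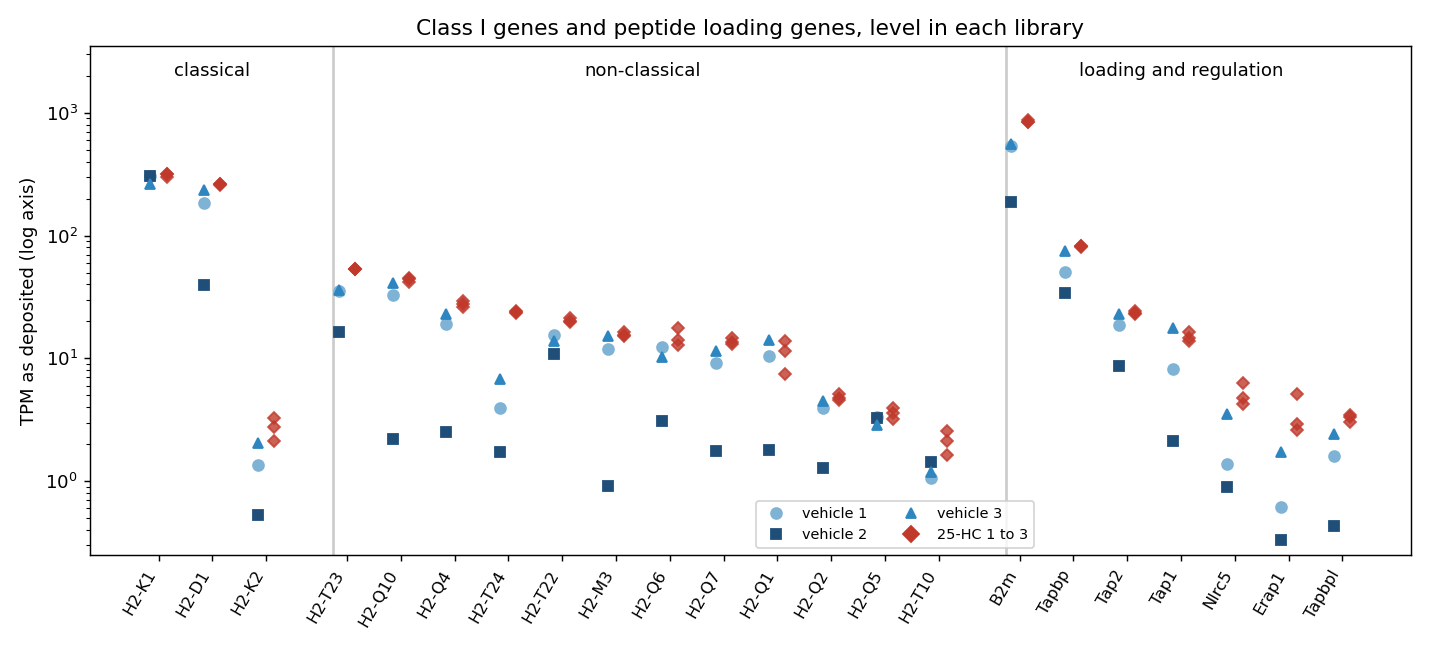
Level of each tested member in each library, as deposited TPM on a log axis, with classical, non-classical and loading genes apart. Each point is 1 library; vehicle 2 is the lowest point for most members, H2-K1 and H2-Q5 are nearly level across libraries, and H2-T24 in 25-HC (23.2 to 24.4 TPM) stands clear of all vehicle libraries.

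The classical heavy chains were the most abundant H2 transcripts, and H2-K1 and H2-D1 behaved differently among the vehicle libraries. H2-K1 (ENSMUSG00000061232), which presents peptides to CD8 T cells, was at 303, 306 and 263 TPM with vehicle (libraries 1, 2 and 3) and 315, 317 and 301 TPM in 25-HC 1, 2 and 3. The groups overlapped, and the log2 difference was 0.10 (SE 0.17, adjusted p = 0.667 by limma), with 2 of the 3 treated libraries above every vehicle library. After median-ratio rescaling it was -0.53, with overlap. H2-D1 (ENSMUSG00000073411), the other classical gene of this reference, was at 182, 39.8 and 235 TPM with vehicle and 264, 258 and 261 TPM with 25-HC. Vehicle 2 was far below the rest, and every 25-HC library was above every vehicle library. Its mean was 152 ± 101 TPM with vehicle and 261 ± 3.0 TPM with 25-HC (SD, n = 3 each), a log2 difference of 1.12 (SE 0.65, adjusted p = 0.391 by limma) that was 0.15 against vehicle 3 alone. H2-K2, which the GENCODE M21 annotation lists as a transcribed pseudogene, was at 1.36, 0.53 and 2.05 TPM with vehicle and 2.11, 2.75 and 3.26 TPM with 25-HC.

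The ratio of H2-K1 to H2-D1 is free of the scaling of a library. It was 1.66, 7.69 and 1.12 in vehicle 1, 2 and 3 and 1.19, 1.23 and 1.16 in 25-HC, so the groups overlapped and vehicle 2 stood apart (exact permutation p = 0.4, two-sided). H2-K1 made up 77.7% of all H2 member TPM in vehicle 2 and 37.5% to 46.9% in the other 5 libraries. Their longest transcripts are of similar length, 1874 bases for H2-K1 and 2102 for H2-D1. Relative to the 25-HC mean on the log2 scale, the median gene of their length class lay at -0.98 in vehicle 2. H2-K1 lay at -0.03 and H2-D1 at -2.68, and the cause of this difference was not tested.

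The promoters of both genes are shown because the same letters stand upstream of transcripts that differed in this way. Sequences are from RefSeq on build GRCm38.p6, from 250 bases before to 50 bases after the annotated start, 5′ to 3′ on the strand of the gene, and positions count from that start. The capitals mark the kappaB motif GGGATTCCC of the class I enhancer A, and the interferon response sequence TTTCACTTC that follows it. H2-K1 lies at chr17:34000298-34000597 on the minus strand (1 of 2 start sites in the table) and H2-D1 at chr17:35262844-35263143 on the plus strand.
H2-K1: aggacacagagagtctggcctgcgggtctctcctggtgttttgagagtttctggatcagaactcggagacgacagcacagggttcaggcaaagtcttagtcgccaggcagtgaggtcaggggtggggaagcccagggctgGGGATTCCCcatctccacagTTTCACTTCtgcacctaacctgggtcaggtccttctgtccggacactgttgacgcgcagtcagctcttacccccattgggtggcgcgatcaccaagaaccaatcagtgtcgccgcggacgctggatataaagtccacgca
H2-D1: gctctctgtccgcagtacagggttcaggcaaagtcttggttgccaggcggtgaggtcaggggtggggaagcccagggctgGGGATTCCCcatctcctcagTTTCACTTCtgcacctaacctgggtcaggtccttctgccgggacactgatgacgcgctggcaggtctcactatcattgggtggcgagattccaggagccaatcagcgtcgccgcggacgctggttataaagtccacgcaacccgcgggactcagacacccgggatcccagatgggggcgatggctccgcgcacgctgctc
The kappaB motif begins at position -110 in H2-K1 and at -170 in H2-D1, and TTTCACTTC at -90 and -150. From the other H2-K1 start site these motifs begin at -124 and -104, so positions depend on the annotated start. Over 239 aligned bases the promoters were 88.3% identical.

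Promoters were in the table for 14 of the 22 tested members, 10 of them H2 genes, and not for H2-K2, H2-Q1, H2-Q5, H2-T10, H2-T24, Tap2, Tapbpl and Nlrc5. On either strand TTTCACTTC stood in 7 of the 10 H2 promoters (H2-K1, H2-D1, H2-Q4, H2-Q6, H2-Q7, H2-Q10 and H2-M3) and in 0.505% of all 32851 promoters in the table. The motif GGGATTCCC stood in 4 of the 10 (H2-K1, H2-D1, H2-Q6 and H2-Q7) and in 0.353% of all. The core of the interferon-stimulated response element (TTTC, 2 bases of any kind, TTTC) stood in H2-T22, H2-T23, B2m and Erap1, and in 3.44% of all promoters. The CCAAT box stood in 9 of the 10 H2 promoters and in 37.4% of all. Of 12 H2 promoters whose genes stayed under 1 TPM, 0 held any of the first 3 motifs and 10 held CCAAT. The H2 promoters share descent, with 66.8% to 97.7% identity between members, so these matches are not separate events. A match describes letters and shows no binding.

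Among the non-classical genes, H2-T24 (ENSMUSG00000053835) differed the most between groups. It is a class I-like gene of the T region on chromosome 17. It was at 3.91, 1.72 and 6.76 TPM with vehicle (libraries 1, 2 and 3) and 23.2, 24.4 and 23.8 TPM in 25-HC 1, 2 and 3. Every 25-HC library was at least 3.43 times the highest vehicle library, and the 25-HC libraries lay close together. The means were 4.13 ± 2.53 TPM with vehicle and 23.8 ± 0.610 TPM with 25-HC (SD, n = 3 each), a 5.77-fold difference that was 3.52-fold against vehicle 3 alone and 4.27-fold after median-ratio rescaling. The log2 difference was 2.40 (SE 0.43, adjusted p = 0.389 by limma), and the 3 treated libraries all showed this direction. Only 116 of the 12092 tested genes had a difference as large (0.959%), and 74 (0.612%) against vehicle 3 alone.

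The call on H2-T24 depended on how the libraries were brought to a common scale. With limma its adjusted p was 0.0628 after median-ratio rescaling, 0.0265 after quantile normalization and 0.0256 after subtraction of each library's trend with transcript length. Those settings called 0.00827%, 0.0331% and 0.144% of all genes higher. Against vehicle 3 alone adjusted p was 0.00985, where 4.52% of all genes were called higher and the lone vehicle library was assumed to vary like the treated ones. Without vehicle 3 it was 0.0379 (5.55% of all genes called higher), and over all 17 other settings it ran from 0.00985 to 0.62 with a log2 difference of 1.68 to 2.76. The gap in H2-T24 was larger than that of the median gene of like transcript length or GC content in each vehicle library. H2-T24 was picked as the member that differed most, and the part of length or GC content in its gap was not tested. Relative to the 25-HC mean it lay at -2.34, -3.19 and -1.68 in vehicle 1, 2 and 3, while the median gene of its length class lay at -0.11, -0.98 and 0.07 and that of its GC class at -0.42, -1.46 and 0.05.

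Ratios within a library showed the same order. H2-T24 over H2-T23, its neighbour on the chromosome, was 0.110, 0.105 and 0.187 in vehicle and 0.434, 0.459 and 0.443 in 25-HC, with no overlap (exact permutation p = 0.1, two-sided, the smallest that this design can give). Over each of the 21 other tested members in turn, the ratio of H2-T24 was higher in every 25-HC library for 18. The exceptions were H2-Q10, H2-M3 and Erap1. The next member by this measure was Erap1, with 11 of 21, though it passed the filter only through 25-HC. H2-Q10 and H2-M3 had 0 of 21. H2-T24 was picked for its difference in these same libraries, and its 21 ratios share 1 numerator. Neither these ratios nor the permutation p is therefore separate support, and the like count over all genes was not computed. An opposite-strand gene, A930015D03Rik, overlaps H2-T24, H2-T23 and H2-T22 in GENCODE M21, and reads of the overlap cannot be told apart where strand was not used. It was at 8.60, 4.35 and 8.21 TPM with vehicle and 7.27, 8.22 and 8.49 TPM with 25-HC, with overlap.

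**Figure D2:**
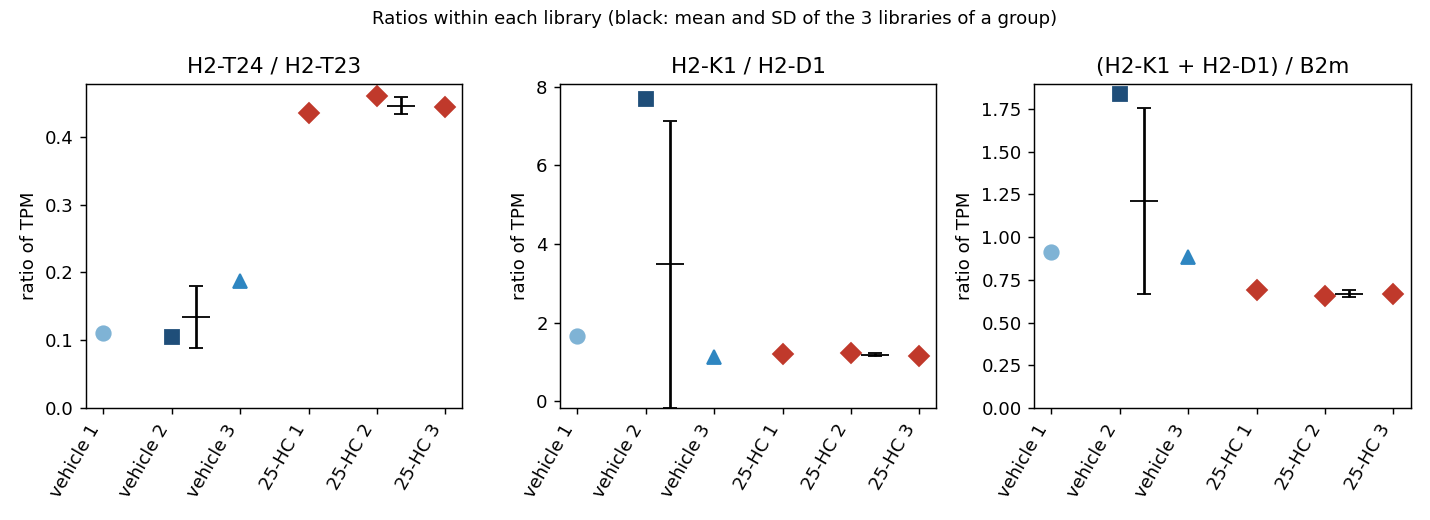
Ratios of TPM within each library for H2-T24 over H2-T23, H2-K1 over H2-D1, and H2-K1 plus H2-D1 over B2m. Points are libraries and black marks the mean and SD of each group's 3 libraries; the T24 ratio is 0.105 to 0.187 in vehicle and 0.434 to 0.459 in 25-HC, and vehicle 2 alone lifts the K1 to D1 ratio to 7.69.

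As deposited, the other T region genes were also higher in each 25-HC library, by smaller amounts. H2-T23 encodes Qa-1, which presents leader peptides of other class I chains to NK cell receptors. It was at 35.5, 16.4 and 36.2 TPM with vehicle and 53.4, 53.1 and 53.8 TPM with 25-HC. Every treated library stood above every vehicle library, and the log2 difference was 0.92 (SE 0.35, adjusted p = 0.389 by limma). It was 0.55 against vehicle 3 alone and 0.31 after rescaling, without overlap. H2-T22, a ligand of gamma delta T cells, was at 15.6, 10.8 and 13.9 TPM with vehicle and 20.2, 21.2 and 19.8 TPM with 25-HC. It did not overlap as deposited (log2 difference 0.58), but it did after rescaling, where the difference was -0.03. H2-T10, close to H2-T22 in sequence, was at 1.06, 1.42 and 1.18 TPM with vehicle and 2.12, 1.62 and 2.58 TPM with 25-HC. It too overlapped after rescaling, where its difference was 0.03.

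The H2-T23 promoter, at chr17:36032652-36032951 on the minus strand of GRCm38.p6, is shown because it holds the interferon core (capitals, from position -124) without the TTTCACTTC of the classical genes.
H2-T23: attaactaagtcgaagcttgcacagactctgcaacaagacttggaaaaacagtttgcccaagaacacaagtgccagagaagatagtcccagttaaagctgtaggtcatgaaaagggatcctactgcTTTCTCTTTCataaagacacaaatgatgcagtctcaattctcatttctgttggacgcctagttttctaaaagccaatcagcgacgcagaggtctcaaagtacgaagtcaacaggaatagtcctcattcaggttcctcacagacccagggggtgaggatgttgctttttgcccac

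The Q region genes mostly followed vehicle 2. H2-Q10, known as a secreted class I molecule of the liver, was at 32.7, 2.20 and 41.1 TPM with vehicle and 41.5, 45.1 and 44.5 TPM with 25-HC. Its vehicle 3 value was 18.7 times that of vehicle 2 and close to the treated libraries, so its log2 difference of 1.43 (SE 0.97) was 0.09 against vehicle 3 alone. H2-Q4 was at 19.0, 2.50 and 22.9 TPM with vehicle and 27.6, 26.1 and 29.4 TPM with 25-HC, without overlap as deposited or rescaled. H2-Q7 and H2-Q6 encode Qa-2 chains. H2-Q7 was at 9.19, 1.75 and 11.5 TPM with vehicle and 14.7, 13.0 and 13.7 TPM with 25-HC. H2-Q6 was at 12.4, 3.07 and 10.2 TPM with vehicle and 12.8, 14.2 and 17.7 TPM with 25-HC. Both separated as deposited, and only H2-Q7 did after rescaling.

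H2-Q1 went another way. It was at 10.5, 1.81 and 14.1 TPM with vehicle and 13.9, 11.6 and 7.46 TPM with 25-HC. Every treated library was below vehicle 3, and the treated libraries were spread (SD 3.27 TPM around a mean of 11 TPM). H2-Q2 was at 3.94, 1.29 and 4.49 TPM with vehicle and 4.76, 5.12 and 4.54 TPM with 25-HC, with a log2 difference of 0.08 against vehicle 3 alone. H2-Q5, listed as a polymorphic pseudogene, was at 3.30, 3.27 and 2.86 TPM with vehicle and 3.18, 3.62 and 3.91 TPM with 25-HC, with overlap. Like H2-K1, it did not drop in vehicle 2.

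H2-M3, which presents formylated bacterial and mitochondrial peptides, was at 11.99, 0.91 and 15.2 TPM with vehicle and 15.5, 15.2 and 16.3 TPM with 25-HC. Its lowest treated library was barely above vehicle 3, and its difference was 1.18 (SE 0.82, adjusted p = 0.405 by limma) against all vehicle libraries and 0.04 against vehicle 3 alone.

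**Figure D3:**
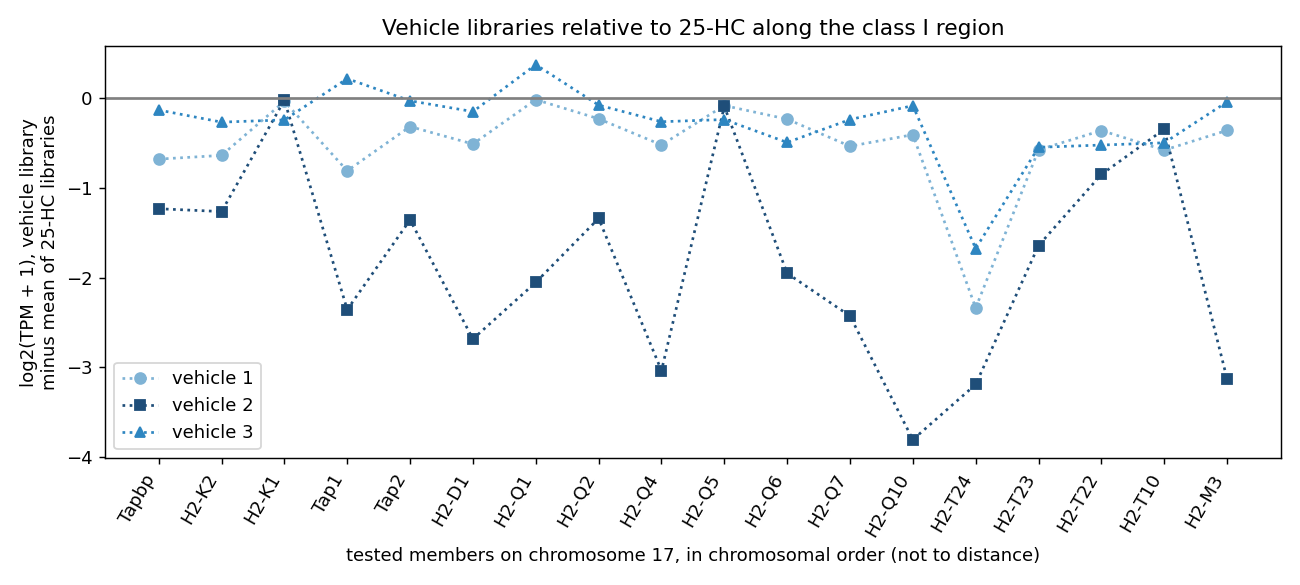
Vehicle libraries minus the mean of the 25-HC libraries on log2(TPM + 1), for the tested members on chromosome 17 in chromosomal order (horizontal axis, not to distance). In vehicle 2 the members ranged from -3.80 at H2-Q10 to -0.03 at H2-K1, while H2-T24 was low in all 3 vehicle libraries (-1.68 or lower).

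Members differ in how much sequence they share with other genes. In GENCODE M21, 35.8% of the 50-base stretches of the longest H2-T22 transcript also occur in a transcript of another gene, mostly of H2-T10. The share was 35.4% for H2-Q5, 32.0% for H2-Q6, 31.6% for H2-T10 and 27.1% for H2-Q7. It was 14.3% for H2-D1 and 8.11% for H2-K1. For H2-T24 it was 3.23%, shared most with Chst10 and Atp6v0e2, which are not class I genes. B2m, Erap1 and Nlrc5 shared none. These shares are of C57BL/6J transcripts, and those of the BALB/c genes were not tested. The read length is not given in the sources used here.

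B2m (ENSMUSG00000060802), the light chain on chromosome 2, was the most abundant member. It was at 533, 188 and 561 TPM with vehicle and 840.2, 880 and 842 TPM with 25-HC. All treated libraries were above all vehicle libraries, with means of 428 ± 208 and 854 ± 22.5 TPM (SD, n = 3 each). The log2 difference was 1.15 (SE 0.43, adjusted p = 0.389 by limma), and 0.60 against vehicle 3 alone. After median-ratio rescaling B2m was 1.42-fold higher, still without overlap. Its transcript falls in the shortest class, whose median gene was at -0.05 in vehicle 2 against -2.18 for B2m. The median gene of its GC class lay nearer, at -1.48 in vehicle 2, and at -0.54 in vehicle 1 against -0.68 for B2m. The part of length or GC content in the B2m values was not tested.

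The B2m promoter, at chr2:122147437-122147736 on the plus strand of GRCm38.p6, is shown beside the heavy chains because it holds the interferon core on the opposite strand (capitals, from position -139).
B2m: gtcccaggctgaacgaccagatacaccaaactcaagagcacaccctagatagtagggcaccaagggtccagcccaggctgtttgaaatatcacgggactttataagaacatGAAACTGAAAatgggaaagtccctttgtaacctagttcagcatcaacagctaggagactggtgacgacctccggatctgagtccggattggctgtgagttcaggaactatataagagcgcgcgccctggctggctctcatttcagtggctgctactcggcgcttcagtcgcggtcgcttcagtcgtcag

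The summed heavy chains did not keep a fixed ratio to the light chain, but H2-D1 alone overlapped between groups. All H2 members summed to 646, 393 and 679.5 TPM in vehicle and to 814, 812 and 803 TPM in 25-HC. Over B2m that sum was 1.21, 2.09 and 1.21 in vehicle and 0.969, 0.923 and 0.954 in 25-HC, lower in each treated library (exact permutation p = 0.1, two-sided, the smallest possible). H2-K1 plus H2-D1 over B2m was 0.910, 1.84 and 0.886 in vehicle and 0.689, 0.654 and 0.668 in 25-HC. H2-D1 over B2m was 0.342, 0.211 and 0.418 in vehicle and 0.314, 0.293 and 0.310 in 25-HC, with overlap (exact permutation p = 0.7, two-sided). The lower sums are thus not a trait of each heavy chain. Within the H2 sum, non-classical genes took 24.6%, 12% and 26.5% in vehicle and 28.6%, 28.8% and 29.6% in 25-HC, higher in each treated library. TPM is per transcript length, so these are ratios of transcript numbers as estimated by the authors' tools.

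The peptide transporter and its partners differed less between groups once vehicle 3 was the reference. Tap1, a chain of the TAP transporter, was at 8.13, 2.13 and 17.6 TPM with vehicle and 13.9, 16.5 and 14.7 TPM with 25-HC. It overlapped, and every treated library was below vehicle 3. Psmb9 overlaps it on the opposite strand (8.40 to 19.8 TPM). Tap2, the partner chain, was at 18.8, 8.61 and 23.1 TPM with vehicle and 24.1, 23.2 and 23.6 TPM with 25-HC. It separated as deposited (log2 difference 0.57) and overlapped after rescaling (-0.03). Tapbp, which encodes tapasin, was at 50.5, 34.1 and 74.2 TPM with vehicle and 82.1, 81.1 and 81.5 TPM with 25-HC. Its log2 difference of 0.68 became 0.06 after rescaling, with overlap. Zbtb22 overlaps it on the same strand and was at 1.32 to 17.5 TPM, lowest in vehicle 2.

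Tapbpl, Erap1 and Nlrc5 were low and separated under both scalings. Tapbpl encodes TAPBPR, a peptide editor related to tapasin. It was at 1.61, 0.43 and 2.41 TPM with vehicle and 3.33, 3.45 and 3.05 TPM with 25-HC. Vamp1 overlaps it on the opposite strand at a like level, 1.61, 0.57 and 4.28 TPM with vehicle and 3.79, 3.85 and 4.05 TPM with 25-HC, and its part in the Tapbpl values was not tested. Erap1, the aminopeptidase that trims peptides in the endoplasmic reticulum, was at 0.62, 0.33 and 1.74 TPM with vehicle and 5.11, 2.62 and 2.92 TPM with 25-HC. Its log2 difference was 1.29 (SE 0.39, adjusted p = 0.389 by limma), with 25-HC 1 well above the other treated libraries. Cast overlaps Erap1 on the opposite strand and was at 1.45, 0.41 and 2.45 TPM with vehicle and 5.09, 4.49 and 2.57 TPM with 25-HC, also higher in every treated library, and its part in the Erap1 values was not tested. Nlrc5, the transactivator of class I genes, was at 1.38, 0.90 and 3.55 TPM with vehicle and 4.21, 6.34 and 4.77 TPM with 25-HC. Its log2 difference was 1.14 (SE 0.40, adjusted p = 0.389 by limma). Its adjusted p was 0.0489 without vehicle 3, where 5.55% of all genes were called higher, and 0.270 to 0.620 under the other settings in which it was tested. The difference was 0.41 against vehicle 3 alone and 0.36 after the length correction.

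**Figure D4:**
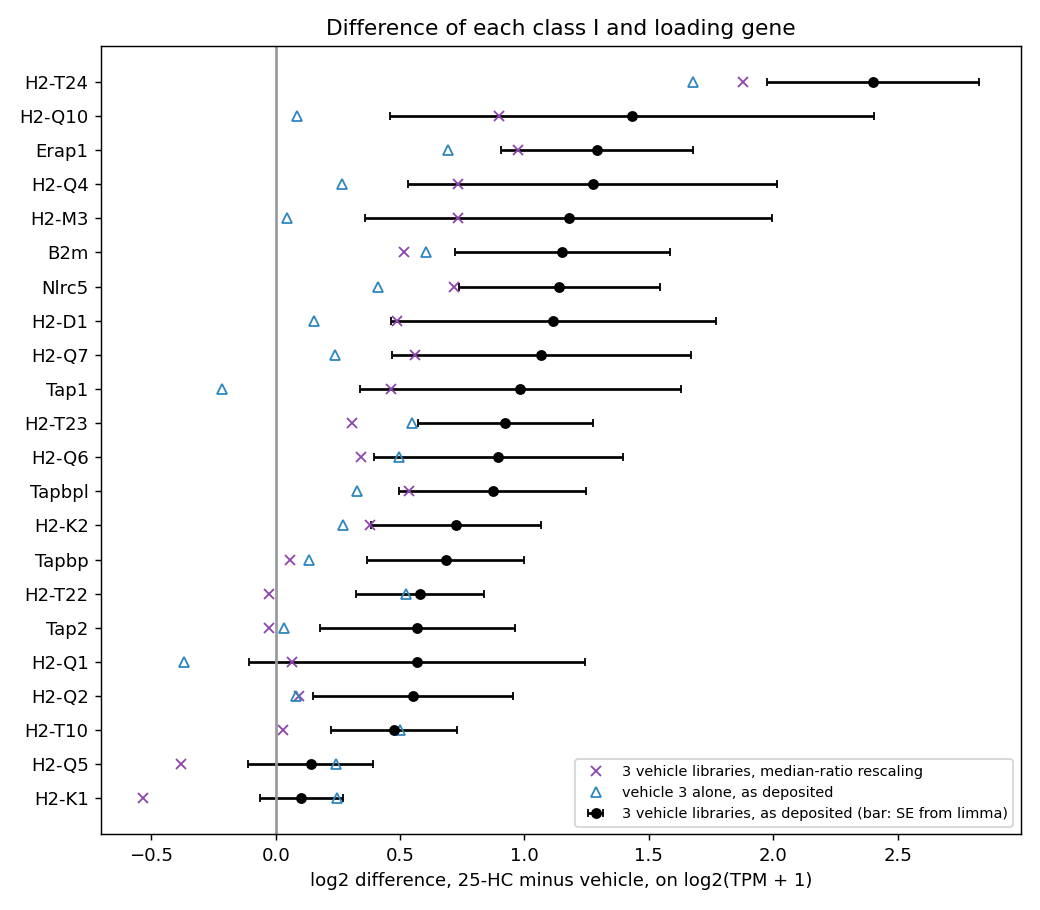
Log2 difference of each tested member, 25-HC minus vehicle, on log2(TPM + 1): against all vehicle libraries as deposited (dot, bar is the SE from limma), after median-ratio rescaling (cross) and against vehicle 3 alone (triangle). H2-T24 lies at 2.40, 1.88 and 1.68 under the respective references, while Tap1 and H2-Q1 fall below 0 against vehicle 3 and H2-K1 and H2-Q5 fall below 0 after rescaling.

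Other genes around the class I pathway were taken from lists by role, and none of their genes passed limma after adjustment over all genes. The 7 endoplasmic reticulum partners of loading had a median log2 difference of 0.86, which was 0.04 against vehicle 3 alone. Of these, 4 separated upward (3 after rescaling, with 2 downward). Of all genes, 22.6% separated upward as deposited, and 18.7% upward and 17.9% downward after rescaling. No list was tested against such shares. Canx, the chaperone calnexin, was at 80.0, 13.9 and 182 TPM with vehicle and 215, 212 and 223 TPM with 25-HC. Calr, calreticulin, overlapped as deposited, at 844 ± 243 and 766 ± 19.3 TPM (SD, n = 3 each). It was lower in every treated library once rescaled (log2 difference -0.73), and its difference was -0.44 against vehicle 3 alone.

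The immunoproteasome and its activator, which make class I peptides, had a lower median difference than the members, which was not tested. Of 6 tested genes (7 listed), 1 separated upward, beside 22.6% of all genes (18.7% upward and 17.9% downward after rescaling). The median log2 difference of the list was 0.11. After rescaling none separated upward and 1 (Pomp) downward, with a median of -0.53, and against vehicle 3 alone the median was 0.02. Psmb9, which separated as deposited and overlapped once rescaled, was at 16.5, 8.40 and 17.5 TPM with vehicle and 18.9, 19.8 and 19.1 TPM with 25-HC. Pomp, the proteasome assembly factor, overlapped as deposited, at 324 ± 164 and 386 ± 9.65 TPM (SD, n = 3 each). Other peptide trimming enzymes (6 of 7 tested) had a median of 0.43. Of them 2 separated upward and 1 downward, beside 22.6% and 8.1% of all genes. The median was -0.17 after rescaling, with 1 upward and 2 downward, and -0.10 against vehicle 3 alone. Lnpep was at 0.51, 0.15 and 1.52 TPM with vehicle and 2.13, 1.98 and 2.03 TPM with 25-HC, and it passed the 1 TPM filter only through the treated libraries. Lap3 overlapped as deposited, at 54.8 ± 25.4 and 64.3 ± 2.0 TPM (SD, n = 3 each), and was lower in every treated library once rescaled. Thop1, a cytosolic peptidase that degrades class I peptides and the gene that separated downward, was even in vehicle at 53.0, 54.2 and 55.3 TPM and stood at 38.3, 38.8 and 37.5 TPM in 25-HC. It was named after its values were seen.

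Regulators of class I transcription (18 of 19 tested) had a median log2 difference of 0.86, which was 0.12 against vehicle 3 alone. Of them 9 separated upward and 1 downward, and 7 and 1 did after rescaling. The shares of all genes were 22.6% and 8.1% as deposited, and 18.7% and 17.9% after rescaling. Rfxap, a subunit of the RFX factor that binds MHC promoters, was the one that separated downward, at 29.1, 38.9 and 32.2 TPM with vehicle and 14.1, 15.5 and 16.4 TPM with 25-HC. Its log2 difference was -1.06 (adjusted p = 0.389 by limma, shown by all 3 treated libraries) and -1.02 against vehicle 3 alone. Nfkb1, a subunit of NF-kappaB, was at 38.6, 3.99 and 72.9 TPM with vehicle and 78.0, 75.2 and 77.6 TPM with 25-HC. Irf9 carries the interferon signal and was named after its values were seen. It was at 6.21, 1.80 and 9.89 TPM with vehicle and 20.4, 17 and 18.2 TPM with 25-HC, and separated under both scalings.

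Other partners of beta-2-microglobulin and the ligands of the NK receptor NKG2D (7 of 11 tested) had a median of 0.88. As deposited 4 separated upward and none downward, beside 22.6% and 8.1% of all genes. After rescaling 3 separated upward and 1 (Hfe) downward, beside 18.7% and 17.9%. The median of the list was 0.53 after rescaling and 0.23 against vehicle 3 alone. Mr1, which presents vitamin metabolites, was at 0.96, 0.53 and 1.98 TPM with vehicle and 3.18, 2.26 and 3.13 TPM with 25-HC. Raet1e, an NKG2D ligand, was at 104, 17.5 and 132 TPM with vehicle and 152, 163 and 152 TPM with 25-HC. Of a list of myeloid receptors drawn up for class I, 3 of 6 were tested (Pirb, Pira2 and Lilrb4a). That each of them binds class I is not shown here. As deposited all 3 separated upward, beside 22.6% of all genes. After rescaling 1 did, beside 18.7%. Pirb, an inhibitory receptor that binds class I, was at 2.46, 2.27 and 3.30 TPM with vehicle and 8.36, 7.06 and 6.68 TPM with 25-HC, and the groups overlapped once rescaled. Lilrb4a was at 58.1 ± 6.08 and 74.7 ± 3.66 TPM (SD, n = 3 each).

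The MHC class II pathway had a median log2 difference of -0.21 over 7 tested genes of 11, which was 0.07 against vehicle 3 alone. As deposited 1 separated upward and 2 downward, beside 22.6% and 8.1% of all genes. After rescaling 0 separated upward and 1 (H2-Ab1) downward, beside 18.7% and 17.9%, and the median of the list was -0.57. Cd74, the invariant chain, was at 840.5, 882 and 693 TPM with vehicle and 656, 684 and 658 TPM with 25-HC, without overlap as deposited and with overlap after rescaling. H2-Aa, a class II alpha chain, was at 1.86, 1.39 and 1.79 TPM with vehicle and 2.51, 4.0 and 2.02 TPM with 25-HC. Ciita, the class II transactivator, was listed at 0 in all libraries.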

How the data were processed

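RNA of 6 RAW264.7 libraries (3 vehicle, 3 25-HC) was measured, with TruSeq RNA libraries from 1 µg of total RNA per the labels' protocols. The authors deposited TPM per gene with 2 decimals, and the submitters' processing notes name HISAT2, StringTie, RSEM and GRCm39, without versions or order. The sources used here do not give the annotation release, strand setting or read length. TPM keeps no depth, so no counting interval was possible, and values listed at 0 can be failed estimates.

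Groups came from sample titles. A symbol shared by several identifiers went to the row with the highest mean. The 12092 genes averaging at least 1 TPM entered limma 3.58.1 in R 4.3.3 as log2(TPM + 1), fitted by lmFit and, with a trend of variance on mean, eBayes (two-sided). P-values were Benjamini-Hochberg adjusted over all of them and called under 0.05. The pseudocount makes log2 differences understate the change of low genes. Folds are ratios of mean TPM. The limma step was also run on simulated data, and the outcome of that run is not reported here. The simulated libraries were not shown to match the larger and uneven spread of the vehicle libraries. That run therefore says nothing on how limma behaves with these groups.

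Alternatives were pseudocounts of 0.1 and 5, every gene with a value above 0, a filter at 5 TPM, rescaling by median ratio, quantile normalization, a transcript-length correction (loess, span 0.75, degree 2), eBayes without the trend or with robust moderation, the replicate number as a block, and each library omitted in turn. Vehicle 3 alone was added after seeing the data. Transcript lengths, gene overlaps and shared 50-base stretches came from GENCODE M21 (GRCm38), matched by identifier for 92.1% of tested genes and all 22 tested members. Promoters came from RefSeq, matched by symbol and searched for exact motifs on both strands. Other software was Biopython 1.88, pandas 2.3.3, matplotlib 3.10.9, scipy 1.17.1 and numpy 2.4.6 under Python 3.11.15.

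The members and lists were chosen with earlier results of these data known. Every member averaging at least 1 TPM is named. Of each list, called genes are named, and with no call the genes of smallest p and of highest mean, unless said otherwise. Some genes of the lists are not reported here.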

Additional observations from a re-analysis of the deposited data

How the results depend on the processing

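The 3 vehicle libraries limit every result here, since 1 library decides many values. Beside 1 gene called over all genes, limma called 0 with a pseudocount of 5, with no filter, with a mean of at least 5 TPM and with the replicate block. At an unadjusted p under 0.05 these had 1318, 1566, 468 and 981 genes higher and 369, 623, 254 and 182 lower, in that order. It called 2 after median-ratio rescaling, 5 after quantile normalization, 19 after the length correction and 1312 against vehicle 3 alone (547 higher, 765 lower), and 0 to 722 with 1 library left out, the highest without vehicle 3. Among members the calls were 1 after quantile normalization and 1 after the length correction (H2-T24 in both), 4 against vehicle 3 alone (H2-T24, H2-T23, H2-T22 and B2m; a comparison added after seeing the data, in which the lone library is assumed to vary like the treated ones) and 0 to 2 with 1 library left out. Members separated upward numbered 10 after median-ratio rescaling, 10 after quantile normalization and 9 after the length correction. Of all genes tested under these settings, 18.7%, 18.6% and 17.1% separated upward, in that order. In 2 members every treated library lay below vehicle 3, as in 45.7% of all genes.

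Of the 22 named members, 14 kept a difference above 0 in every setting in which they were tested. The settings reuse the same libraries and are not separate checks, and the like share of all genes was not computed. As deposited, all 22 members and 9120 of the 12092 tested genes had a difference above 0. Against vehicle 3 alone, 20 members and 4903 of all tested genes did. After median-ratio rescaling the difference turned to -0.53 for H2-K1, -0.38 for H2-Q5, -0.028 for Tap2 and -0.025 for H2-T22. After the length correction it turned to -0.28 for H2-K1, -0.061 for Tap2, -0.00398 for H2-T22 and -0.15 for H2-T10. After quantile normalization it turned to -0.54 for H2-Q5, -0.14 for H2-T10, -0.081 for H2-Q2 and -0.072 for H2-Q1. With 1 library left out it ran from -0.18 (without vehicle 2) to 1.04 (without vehicle 3) for H2-Q1, which was at -0.37 against vehicle 3 alone, where Tap1 was at -0.21. The cause of these turns was not tested.

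With the replicate number as a block, no member was called, as without it. The deviations of same-numbered libraries from their group means correlated at -0.01, 0.06 and 0.03 for numbers 1, 2 and 3. Vehicle 2 sets much of the vehicle deviations, so these values cannot show whether same-numbered libraries were handled together. Depth is unknown for TPM, so how far it limits the low members cannot be given.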
